A study of Mus musculus with 18 samples.

Results

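The Wnt ligands, their Frizzled and LRP receptors, the R-spondins, the secreted antagonists and 5 genes that read out or transduce the pathway were followed in 10T1/2 cells, a multipotent mouse fibroblast line labelled as mesenchymal stem cells. Members were chosen by name only: every gene of the count table called Wnt, Fzd, Sfrp, Dkk or Rspo with a number, together with *Wif1*, *Lrp5*, *Lrp6*, *Axin2*, *Lef1*, *Tcf7*, *Nkd1* and *Nkd2*. This gave 49 of 54532 genes, namely 19 Wnt ligands, 10 Frizzled receptors, 9 secreted antagonists (Sfrp, Dkk and *Wif1*), 4 R-spondins, 2 LRP co-receptors, 2 TCF/LEF factors and 3 intracellular feedback inhibitors (*Axin2*, *Nkd1* and *Nkd2*). Of these, 8 had no count in any library, 16 had counts but too few for a test, and 25 were among the 14317 genes tested. The cells were WT, or carried a CRISPR-Cas9 disruption of *Foxs1* (FOXS1 KO, clones 1 and 2), and were grown to 2 days post-confluence. They were then kept as uninduced controls, whose time of collection the sources used here do not give, or stimulated by 12 h of TGF-β1 at 1 nM, followed by 48 h in DMII. DMII starts adipocyte differentiation with insulin, indomethacin, dexamethasone and a phosphodiesterase inhibitor. Each of the 6 groups held 3 libraries of poly(A) RNA. Both clones grew from single cells after transfection with guides to the *Foxs1* exon, and their WT comparator is not described as cloned, so the effects of the disruption and of clonal origin cannot be told apart.

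Wnt ligands are secreted lipid-modified proteins that bind Frizzled receptors at the cell surface. With LRP5 or LRP6 as co-receptor they stabilise β-catenin, which then acts on target genes through TCF/LEF factors, whereas ligands such as *Wnt5a* act largely without β-catenin, through Ror and *Ryk* receptors and the planar polarity proteins. SFRP proteins and WIF1 bind the ligands outside the cell, DKK proteins bind the LRP co-receptors, and R-spondins keep Frizzled and LRP at the surface by engaging LGR receptors and the ubiquitin ligases ZNRF3 and RNF43. Signalling through β-catenin is known to hold preadipocytes back from differentiation, and both arms of the pathway are active in fibrosis.

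Library totals ran from 15576685 to 42005596 counts. Values are TMM-normalized CPM, counts relative to the library total, given as mean ± SD of 3 libraries or for each library in turn, and divided by gene length (CPM per kb) wherever different genes are compared. A member was called in a comparison at an edgeR quasi-likelihood Benjamini-Hochberg adjusted p below 0.05, adjusted over all 14317 genes, together with a log2 fold change beyond 1 in either direction. The labels do not say whether the libraries of a group came from separate cultures, so these p-values measure only the spread between the libraries. *Foxs1* RNA, the targeted gene, was 2.23 ± 0.886 CPM in uninduced and 2.51 ± 0.641 CPM in stimulated WT cells and was higher in every library labelled FOXS1 KO, with log2 fold changes of 3.55 and 3.36 uninduced and 4.44 and 3.99 stimulated for clones 1 and 2. An edited gene can still be transcribed, so its RNA is no check of these labels. The sum over 7 fibroblast markers lay between 33898 and 38745 CPM uninduced and between 60219 and 79233 CPM stimulated, and 2 of the 7 were called between a clone and WT. *Pdgfra* was lower in both clones in both treatments, at 517 ± 16.2, 171 ± 2.49 and 216 ± 7.08 CPM in uninduced and 731 ± 8.08, 310.5 ± 25 and 301 ± 10.8 CPM in stimulated WT, clone 1 and clone 2. *Thy1* was higher in clone 1 and lower in clone 2, at 59.6 ± 1.4, 184 ± 9.08 and 0.616 ± 0.258 CPM uninduced and 49 ± 2.7, 161 ± 6.21 and 0.342 ± 0.192 CPM stimulated in the same order. Sums over 4 myofibroblast markers ran from 255 to 294 CPM in uninduced WT, from 415 to 427 CPM in clone 1 and from 186 to 199.7 CPM in clone 2. In stimulated cells they ran from 1981 to 2135 CPM in WT and from 298 to 339 CPM in the clones. In stimulated cells *Acta2*, the leading one, was 2036 ± 84.4 CPM in WT, 308 ± 7.3 CPM in clone 1 and 323 ± 23 CPM in clone 2. The sum over 6 adipocyte markers ran from 0.293 to 1.22 CPM in stimulated WT, from 30.5 to 43.0 CPM in clone 1 and from 2.71 to 4.64 CPM in clone 2, and *Lep* and *Retn* were at 0 in all 18 libraries. Sums over 4 markers each ran from 0 to 3.28 CPM for epithelial markers, from 0 to 7.92 CPM for endothelial markers, from 0 to 1.45 CPM for immune markers and from 0.957 to 7.64 CPM for neural markers over all libraries. The endothelial sums were 5.03 to 7.92 CPM in uninduced WT and at most 0.828 CPM in every other group. *Tek*, the 1 endothelial marker tested, was called lower in both clones in both treatments. It entered the test through uninduced WT, the group where it is high, so these calls are descriptions. The stimulated calls also rest on few counts, with endothelial sums of 0.316 to 0.391 CPM in stimulated WT. The part of these shifts in the results that follow was not tested, and in bulk RNA fewer cells of a type and less RNA per cell cannot be told apart.

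The classes differed in how far their summed level moved. Over all 19 Wnt ligands the sum was 98.4 ± 5.67 CPM per kb in uninduced WT cells, 7.56 ± 0.365 in clone 1 and 6.57 ± 0.46 in clone 2, and after stimulation it was 76 ± 1.77, 2.85 ± 0.0865 and 2.34 ± 0.529 CPM per kb in the same order. The 9 secreted antagonists together went from 149.8 ± 6.16 CPM per kb in uninduced WT to 9.94 ± 0.888 in clone 1 and 1.41 ± 0.083 in clone 2, and from 168 ± 8.84 in stimulated WT to 14.5 ± 0.304 and 9.17 ± 0.509 CPM per kb. In both of these classes every library of either clone lay below every WT library. The Frizzled receptors, at 331 ± 14.5 CPM per kb in uninduced WT, had 274 ± 7.44 in clone 1 and 259.6 ± 3.18 in clone 2, and after stimulation 297 ± 3.39 in WT, 195 ± 4.26 in clone 1 and 228 ± 4.09 CPM per kb in clone 2. All Frizzled sums use the deposited *Fzd8* length of 3346 bases and would be lower with its annotated transcript of 5974. The R-spondins summed to 229 ± 8.71, 111 ± 1.72 and 63.3 ± 0.734 CPM per kb in uninduced WT, clone 1 and clone 2 and to 177 ± 2.53, 38.1 ± 2.25 and 8.33 ± 0.912 after stimulation. The feedback inhibitors were near 0 uninduced and reached 9.81 ± 0.104 CPM per kb in stimulated WT, against 0.775 ± 0.194 and 1.96 ± 0.392 in the clones. Both LRP co-receptors summed to 76 ± 2.03 CPM per kb in uninduced WT, 68 ± 2.97 in clone 1 and 57.4 ± 1.82 in clone 2. After stimulation their sum was 119 ± 7.43 CPM per kb in WT, 247 ± 10.3 in clone 1 and 184 ± 6.33 in clone 2. Most of that sum is *Lrp5*, and *Lrp6* alone was 22.8 ± 0.991 CPM per kb in stimulated WT, 26 ± 3.37 in clone 1 and 19.2 ± 0.734 in clone 2. The TCF/LEF factors summed to 1.41 ± 0.395, 2.39 ± 0.204 and 1.4 ± 0.0728 CPM per kb in uninduced WT, clone 1 and clone 2. After stimulation they had 2.04 ± 0.257, 3.74 ± 0.387 and 2.41 ± 0.102 CPM per kb. These sums are descriptions, with no test.

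**Figure D1:**
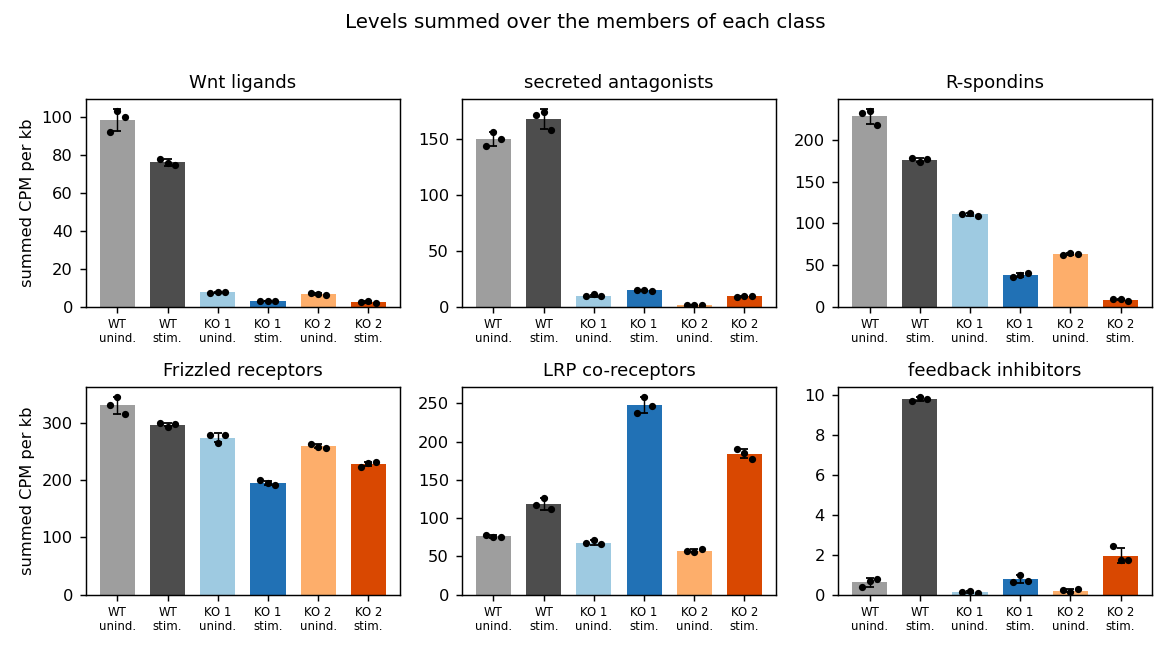
Levels summed over the members of 6 classes, in CPM per kb on linear axes that start at 0 and differ between panels; bars are means of 3 libraries, error bars are SD and points are libraries. Wnt ligands and secreted antagonists are far lower in both FOXS1 KO clones than in WT, Frizzled receptors are less than 2-fold apart, and the summed LRP co-receptors reach 247 and 184 CPM per kb in stimulated clones 1 and 2 against 119 in stimulated WT. Uninduced, the LRP sum is lower in both clones than in WT. The TCF/LEF factors are not drawn.

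Each clone was compared with WT in each treatment to ask which members differ between that clone and WT. In uninduced cells 2 of the 25 tested members were higher and 15 lower in clone 1, where 6.32% of all tested genes were called higher and 8.73% lower. The counts were also 2 higher and 15 lower in clone 2, beside 5.54% and 9.56% of all tested genes. In TGF-β1 + DMII stimulated cells 2 members were higher and 15 lower in clone 1 (all tested genes, 9.42% and 9.60%), and 1 was higher and 15 lower in clone 2 (7.95% and 8.94%). The median log2 fold change of the tested members was -1.06 and -1.71 in uninduced clones 1 and 2 and -2.06 and -2.51 in stimulated ones, and that of all tested genes lay between -0.02 and -0.01. These medians were the same with members at 0 counts set at their lowest possible change. Counts and medians only describe the tested members: 14 of the 25 passed the filter's level of 0.496 CPM in every library of all 6 groups, but 11 passed through some groups only, and a member that entered through the group where it is high had to differ. *Dkk2* reached that level throughout a group only in uninduced WT, and *Dkk3*, *Fzd6* and *Wnt5a* only in the WT groups. Their adjusted p-values against WT are therefore descriptions, as is that of the *Dkk2* response in WT. The 2 clones share their WT libraries, so their values are given side by side and the overlap of their calls is not read as a result.

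**Figure D2:**
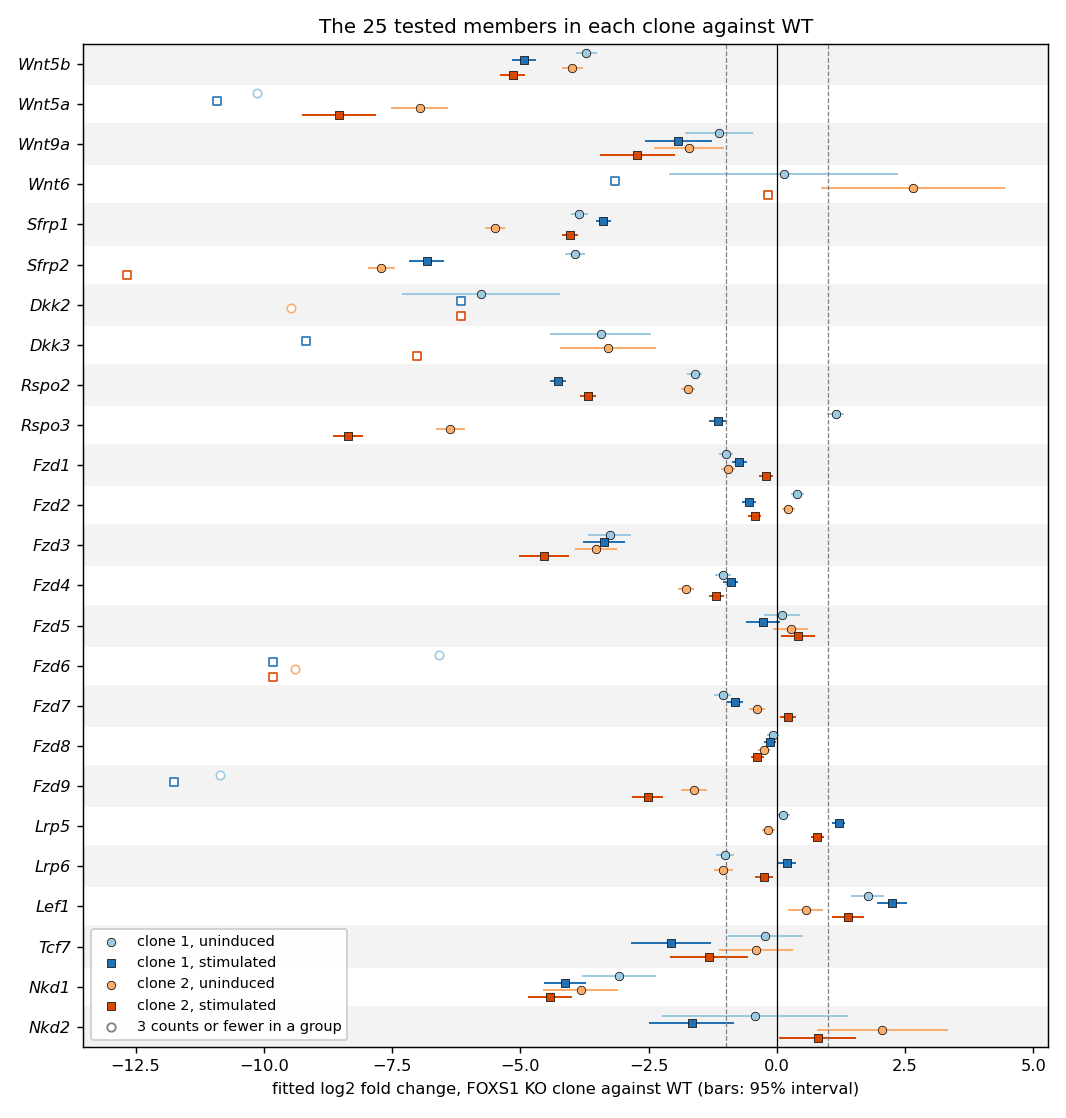
Fitted log2 fold change of each tested member in clone 1 (blue) and clone 2 (orange) against WT, uninduced (circles) or stimulated (squares), with bars for 95% intervals, dashed lines at -1 and 1 and open symbols without a bar where a group held 3 counts or fewer. Ligands, secreted antagonists, *Fzd3*, *Fzd6*, *Fzd9*, *Rspo2* and *Nkd1* lie left of -1 in all 4 comparisons except for *Wnt6*, while *Fzd1*, *Fzd2*, *Fzd5* and *Fzd8* stay between the dashed lines.

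*Wnt5b* was the main ligand of these cells by level. It held 92.4% ± 1.78 of the ligands' summed CPM per kb in uninduced WT, at 91 ± 6.88 CPM per kb against 5.86 ± 1.04 for *Wnt5a* and 1.08 ± 0.29 for *Wnt9a*. *Wnt5b* (ENSMUSG00000030170) encodes a ligand mostly linked to signalling without β-catenin, and its WT libraries had 221, 256 and 248 CPM uninduced and 189, 182 and 179.9 CPM stimulated. In clone 1 they had 17.7, 19.3 and 18.1 CPM uninduced and 6.28, 5.83 and 6.01 CPM stimulated. In clone 2 the values were 16.4, 15 and 13.9 CPM uninduced and 4.48, 7.0 and 4.21 CPM stimulated. All 12 libraries of the clones thus lay below all 6 WT libraries, and within each clone the stimulated libraries lay below the uninduced ones. The log2 fold change against WT was -3.72 ± 0.09 (SE, adjusted p = 3.06e-24) in clone 1 and -3.99 ± 0.09 (SE, adjusted p = 5.38e-25) in clone 2 uninduced, a 13.1-fold and a 15.8-fold lower level by edgeR. Stimulated, it was -4.93 ± 0.10 (SE, adjusted p = 4.02e-26) and -5.15 ± 0.10 (SE, adjusted p = 6.56e-26).

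*Wnt5a*, the best known ligand of the arm without β-catenin, went from a clear level to almost no counts. Uninduced WT libraries had 55.2, 41.4 and 40.8 CPM and stimulated ones 40.3, 39 and 38.8 CPM, or 2808 and 2588 counts in all. Clone 1 had 2 counts over its 3 uninduced and 1 over its 3 stimulated libraries, and clone 2 had 31 and 5. The 23 counts of uninduced clone 2 replicate 1 make up most of the 31. WT exceeded clone 1 by a ratio of 1292 (95% counting interval 357 to 10670.2) uninduced and 2669.8 (95% counting interval 479 to 105490) stimulated, and the edgeR log2 fold change in clone 2 was -6.96 ± 0.24 (SE, adjusted p = 2.23e-18) uninduced and -8.53 ± 0.32 (SE, adjusted p = 8.76e-18) stimulated. The clone 2 values rest on few counts and came to -7.78 without uninduced clone 2 replicate 1 and to -10.15 without stimulated clone 2 replicate 2. *Wnt5a* entered the test through the WT groups only, so these adjusted p-values are descriptions. Of the exonic bases of *Wnt5a*, 4.58% lie under an antisense gene. Since the strand setting of the counting is not stated in these sources, the reads of such pairs cannot be told apart.

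*Wnt9a* (ENSMUSG00000000126), a ligand of the β-catenin arm, was present at a low level and was lower in both clones. WT libraries had 4.6, 2.67 and 3.54 CPM uninduced and 4.74, 6.56 and 4.55 CPM stimulated, against 1.22, 1.44 and 1.5 CPM in stimulated clone 1 and 1.29, 0.588 and 0.481 CPM in stimulated clone 2. The groups did not overlap in stimulated cells, where the log2 fold change was -1.92 ± 0.29 (SE, adjusted p = 1.53e-06) and -2.72 ± 0.33 (SE, adjusted p = 2.52e-08) by edgeR. Uninduced it was -1.12 ± 0.30 (SE, adjusted p = 0.00208) in clone 1, which came to -0.92 and was no longer called without uninduced WT replicate 1, and -1.71 ± 0.30 (SE, adjusted p = 1.85e-05) in clone 2. *Wnt6* stayed near or below 1 CPM: its summed counts were 9 and 3 in uninduced and stimulated WT, 9 and 0 in clone 1 and 78 and 2 in clone 2, and it entered the test only through uninduced clone 2. The other 15 ligands were not tested. *Wnt3*, *Wnt3a*, *Wnt7a* and *Wnt8a* had no count, and *Wnt1*, *Wnt2*, *Wnt2b*, *Wnt4*, *Wnt7b*, *Wnt8b*, *Wnt9b*, *Wnt10a*, *Wnt10b*, *Wnt11* and *Wnt16* had between 1 and 58 counts over all 18 libraries.

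The untested ligands had few counts in every group. *Wnt11* had 32 and 18 counts in uninduced and stimulated WT, 3 and 1 in clone 1 and 0 and 4 in clone 2, and *Wnt16* had 33 and 6, 0 and 10, and 5 and 3 in the same order. *Wnt2b* had 11 and 6 counts in WT, 7 and 7 in clone 1 and 13 and 6 in clone 2, and *Wnt7b* had 11 and 12, 1 and 0, and 6 and 1. The 12 *Wnt7b* counts of stimulated WT and the 6 of uninduced clone 2 each lay in 1 library. *Wnt10b*, a ligand known for holding back adipocyte differentiation, had 0 and 2 counts in WT, 0 and 9 in clone 1 and 10 and 1 in clone 2. All 9 counts of stimulated clone 1 lay in 1 library. *Wnt2* had its 9 counts in uninduced WT, *Wnt4* had 8 in stimulated WT and 5 in stimulated clone 2, and *Wnt8b* had 1 and 8 in clone 1 and 2 in stimulated clone 2. *Wnt1* had 2 and 2 counts in clone 1, *Wnt9b* 1 in uninduced clone 1 and *Wnt10a* 1 in stimulated WT.

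*Sfrp1* and *Sfrp2* were the leading antagonists among the 9 chosen by name. *Frzb*, a related antagonist outside that rule, is described with the other pathway genes and is not part of the shares given here. *Sfrp2* (ENSMUSG00000027996, chromosome 3 of GRCm38 from 83766321 to 83774316), which binds Wnt ligands outside the cell, held 76.3% ± 1.54 of the antagonists' summed CPM per kb in uninduced WT. WT libraries had 231, 258 and 249.9 CPM uninduced and 36.5, 39.95 and 36.1 CPM stimulated. Clone 1 had 14.4, 18 and 15.8 CPM uninduced and 0.426, 0.221 and 0.364 CPM stimulated. Clone 2 had 1.16, 1.2 and 1.16 CPM uninduced and no count in any of its 3 stimulated libraries. WT, clone 1 and clone 2 did not overlap in either treatment and followed in this order. By edgeR the log2 fold change was -3.94 ± 0.08 (SE, adjusted p = 1.41e-24) in clone 1 and -7.71 ± 0.11 (SE, adjusted p = 5.29e-28) in clone 2 uninduced and -6.83 ± 0.15 (SE, adjusted p = 2.86e-24) in stimulated clone 1. Stimulated clone 2 was at least 624-fold lower than WT, counting its 0 as 3 counts over the group. Of the exonic bases of *Sfrp2*, 16.1% lie under an antisense gene.

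*Sfrp1* (ENSMUSG00000031548, chromosome 8 from 23411502 to 23449632) took over the antagonist sum after stimulation, with 88.9% ± 0.491 of it in WT. Its WT libraries had 149, 144 and 137 CPM uninduced and 671, 675 and 609 CPM stimulated. Clone 1 had 9.73, 9.98 and 10.1 CPM uninduced and 62.6, 64 and 61.2 CPM stimulated. Clone 2 had 3.39, 3.41 and 2.43 CPM uninduced and 37.5, 41.1 and 41.6 CPM stimulated. Every genotype thus had more *Sfrp1* RNA after stimulation, and the stimulated libraries of both clones stayed below even the uninduced WT libraries. The log2 fold change against WT was -3.85 ± 0.07 (SE, adjusted p = 3.86e-27) and -5.49 ± 0.08 (SE, adjusted p = 2.13e-29) uninduced and -3.38 ± 0.06 (SE, adjusted p = 7.95e-28) and -4.02 ± 0.06 (SE, adjusted p = 5.02e-29) stimulated in clones 1 and 2 by edgeR.

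The DKK genes had few or no counts in the clones. *Dkk2* and *Dkk3* entered the test through WT groups only, so their adjusted p-values against WT are descriptions. *Dkk2*, whose protein binds LRP5 and LRP6, had 249 counts in uninduced and 27 in stimulated WT, 4 and 0 in clone 1 and 0 and 0 in clone 2. Uninduced clone 2 was at least 112-fold lower than WT, and the fitted log2 fold change of uninduced clone 1 was -5.76 ± 0.70 (SE, adjusted p = 2.06e-07) by edgeR, with 3 of its 4 counts in replicate 3, without which it was -6.99. Against stimulated WT, the stimulated clones were at least 9.28-fold and 6.81-fold lower. *Dkk3*, a divergent member of the family, had 4.14, 6.03 and 5.22 CPM in uninduced WT and 3.18, 2.85 and 4.06 CPM in stimulated WT. Its libraries ranged from 0.104 to 0.768 CPM in uninduced clone 1 and from 0.354 to 0.696 CPM in uninduced clone 2, with a log2 fold change of -3.43 ± 0.44 (SE, adjusted p = 1.77e-07) and -3.28 ± 0.42 (SE, adjusted p = 1.71e-07) by edgeR. Stimulated clone 1 had 0 counts of *Dkk3* and clone 2 had 1, against 221 in WT, so that clone 1 was at least 76-fold lower and the ratio of WT to clone 2 was 167 (95% counting interval 29.7 to 6635). *Dkk1* and *Dkk4* had no count in any library, and the other antagonists were not tested. *Sfrp4* had 8 and 2 counts in uninduced and stimulated WT, 5 in uninduced clone 1 and 1 in uninduced clone 2, *Sfrp5* had 6 in uninduced WT and 2 in uninduced clone 1, and *Wif1* had 2 and 3 in WT and 3 in stimulated clone 1.

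**Figure D3:**
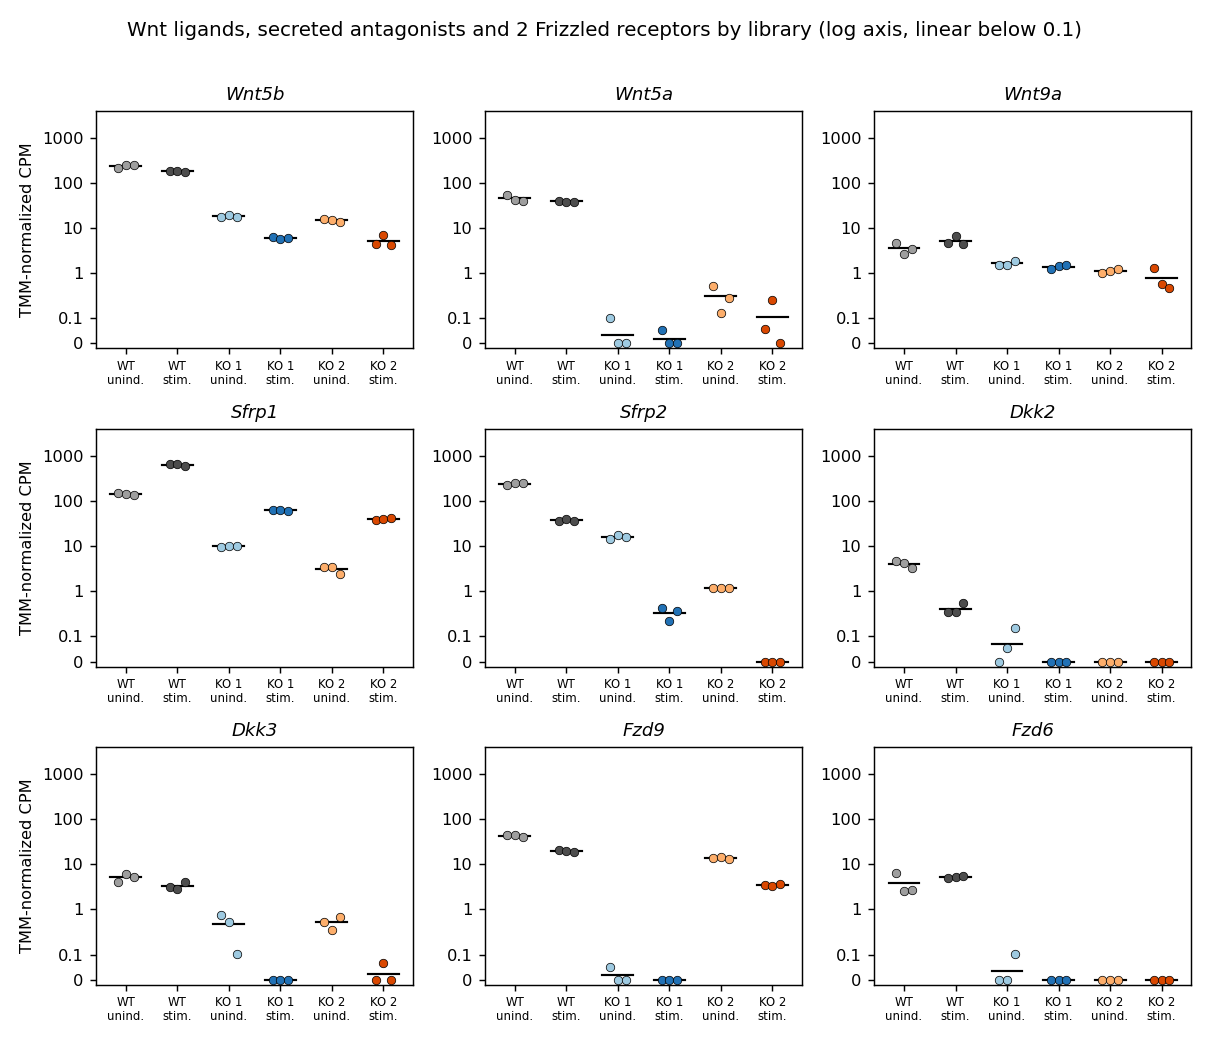
TMM-normalized CPM of 9 members in each of the 18 libraries (points) with the mean of each group (line), on a log axis that is linear below 0.1 CPM. For all 9 genes the FOXS1 KO libraries lie below the WT libraries of the same treatment, with 0 counts in stimulated clone 2 for *Sfrp2*, *Dkk2* and *Fzd6*, while *Fzd9* is near 0 in clone 1 but between 3.33 and 14.7 CPM in clone 2.

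Upstream sequence was looked at for members that were lower in the clones. RefSeq start sites gave a window for 33 of the 49 members, and the 250 bases before the start site (in the window nearest the deposited gene start) are printed for *Wnt5b*, *Sfrp2*, *Dkk2* and *Wnt9a*. These 4 were picked after their values were seen, as ligands and antagonists that were called lower in both clones and whose RefSeq start lies within 2 bases of that gene start, so that the base composition of such genes can be compared. The windows of *Tcf7* and *Nkd2*, intracellular members that were also called lower in a clone and start at that position, are not printed and hold 37 and 14 CG dinucleotides. Sequences are from RefSeq for GRCm38.p6, written 5′ to 3′ on the strand of the gene, and capitals mark CG dinucleotides.
*Wnt5b* (chr6:119544348-119544597, minus strand): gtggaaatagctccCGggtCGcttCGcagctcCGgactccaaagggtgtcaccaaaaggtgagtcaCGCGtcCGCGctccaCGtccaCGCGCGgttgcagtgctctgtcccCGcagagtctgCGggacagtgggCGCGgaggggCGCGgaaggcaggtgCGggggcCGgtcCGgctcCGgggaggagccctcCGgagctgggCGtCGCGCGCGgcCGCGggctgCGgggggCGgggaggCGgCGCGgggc
*Sfrp2* (chr3:83766071-83766320, plus strand): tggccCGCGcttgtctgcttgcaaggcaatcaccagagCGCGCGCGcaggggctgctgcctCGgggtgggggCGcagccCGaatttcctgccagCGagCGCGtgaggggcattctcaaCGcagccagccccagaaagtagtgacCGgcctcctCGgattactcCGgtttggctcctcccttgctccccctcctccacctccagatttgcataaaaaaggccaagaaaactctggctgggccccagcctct
*Dkk2* (chr3:132085042-132085291, plus strand): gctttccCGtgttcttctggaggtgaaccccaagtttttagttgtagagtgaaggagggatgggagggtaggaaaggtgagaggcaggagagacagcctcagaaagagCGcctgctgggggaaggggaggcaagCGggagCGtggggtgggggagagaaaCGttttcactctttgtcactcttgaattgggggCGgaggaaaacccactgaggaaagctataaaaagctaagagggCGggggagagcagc
*Wnt9a* (chr11:59306680-59306929, plus strand): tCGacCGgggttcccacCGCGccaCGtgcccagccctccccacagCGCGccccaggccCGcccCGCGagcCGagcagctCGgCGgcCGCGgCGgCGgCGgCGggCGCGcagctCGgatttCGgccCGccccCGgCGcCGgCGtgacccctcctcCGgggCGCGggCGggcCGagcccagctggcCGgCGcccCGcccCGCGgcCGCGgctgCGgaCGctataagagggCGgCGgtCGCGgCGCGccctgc
The windows of *Wnt5b* and *Wnt9a* are rich in CG dinucleotides, with 35 and 48, and those of *Sfrp2* and *Dkk2* hold 16 and 7, where the median of all 32851 RefSeq windows is 6. Such richness is not particular to members lower in the clones. *Fzd1* and *Fzd5*, never called, hold 12 and 32, and members with no count in any library hold between 6 (*Dkk1*) and 41 (*Wnt3a*). The window of *Dkk2* holds the letters TATAAA from -32 to -27, as do 7.59% of all windows anywhere in their 250 bases. Neither the forkhead letters TGTTTAC or TGTTTAT nor the TCF/LEF letters CTTTGAA or CTTTGAT occur in the 4 windows on either strand. Among the 33 members 2 held the forkhead letters (*Rspo4* and *Wif1*, neither tested) and 2 the TCF/LEF letters (*Dkk1* and *Wnt11*), and of all windows 7.1% and 7.48% do. No match says only that these letters are not in this window.

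*Rspo2* had the highest level per length of the R-spondins in WT, and *Rspo3* differed between the clones. *Rspo2* (ENSMUSG00000051920, chromosome 15 from 43020794 to 43170826) is a secreted agonist that raises the cell's response to Wnt. Its WT libraries had 1098, 1103 and 1014 CPM uninduced and 531, 508 and 551 CPM stimulated. Clone 1 had 348, 359 and 350.4 CPM uninduced and 25.6, 29.6 and 27.1 CPM stimulated, and clone 2 had 319, 327 and 322 CPM uninduced and 43.8, 44.1 and 36.5 CPM stimulated. The clones were below WT in both treatments and far below it after stimulation, with log2 fold changes of -1.6 ± 0.05 (SE, adjusted p = 1.27e-20) and -1.73 ± 0.05 (SE, adjusted p = 2.02e-21) uninduced and of -4.27 ± 0.06 (SE, adjusted p = 1.87e-29) and -3.68 ± 0.06 (SE, adjusted p = 3.59e-28) stimulated by edgeR, or 19.2-fold and 12.8-fold lower.

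*Rspo3* (ENSMUSG00000019880, chromosome 10 from 29452416 to 29535867), the second R-spondin of these cells, had 55, 58.6 and 62.6 CPM in uninduced and 232, 231 and 214 CPM in stimulated WT. Clone 1 had 133, 132 and 126 CPM uninduced and 95.7, 99.1 and 109 CPM stimulated. Clone 2 had 0.781, 0.443 and 0.87 CPM uninduced and 0.952, 0.654 and 0.421 CPM stimulated. Uninduced, the 3 genotypes did not overlap, with clone 1 highest and clone 2 lowest. The log2 fold change was 1.15 ± 0.07 (SE, adjusted p = 8.24e-15) in clone 1 and -6.37 ± 0.12 (SE, adjusted p = 1.54e-26) in clone 2 uninduced, and -1.16 ± 0.07 (SE, adjusted p = 1.62e-15) and -8.35 ± 0.12 (SE, adjusted p = 1.74e-29) stimulated by edgeR. Antisense genes cover 13.1% of its exonic bases. *Rspo1* had 12 and 10 counts in uninduced and stimulated WT and none in the clones, and *Rspo4* had no count.

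The Frizzled receptors with the highest levels were not called, and 3 with lower levels were lower in both clones in both treatments. In uninduced WT the 3 highest were *Fzd8*, *Fzd2* and *Fzd1*, with 99.97 ± 4.21, 91.1 ± 6.97 and 72.1 ± 1.94 CPM per kb. The order among them is not firm, since the deposited length of *Fzd8* is 3346 bases and that of its annotated transcript 5974, with which its share of the class was 19.5% in place of 30.2%. None of the 3 was called in any comparison, nor was *Fzd5*. The fitted log2 fold changes against WT ran from -0.38 to -0.08 for *Fzd8*, from -0.54 to 0.40 for *Fzd2*, from -0.99 to -0.21 for *Fzd1* and from -0.26 to 0.41 for *Fzd5*. For *Fzd1* in uninduced clone 1 the 95% interval was -1.11 to -0.87, on both sides of the fold threshold, with an adjusted p of 2.05e-15 by edgeR.

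*Fzd9*, *Fzd6* and *Fzd3* were those 3 receptors. *Fzd9* (ENSMUSG00000049551, chromosome 5 from 135248938 to 135251230) had 43.7, 44.8 and 40.4 CPM in uninduced and 21.2, 19.5 and 19.3 CPM in stimulated WT. Clone 1 had 1 count over its uninduced and 0 over its stimulated libraries, whereas clone 2 had 14.1, 14.7 and 13.2 CPM uninduced and 3.47, 3.33 and 3.67 CPM stimulated. Stimulated clone 1 was at least 451-fold lower than WT, and clone 2 had a log2 fold change of -1.62 ± 0.11 (SE, adjusted p = 2.47e-13) uninduced and -2.51 ± 0.13 (SE, adjusted p = 1.12e-15) stimulated by edgeR. *Fzd6*, which with *Fzd3* is known for roles in planar polarity, had 6.58, 2.52 and 2.74 CPM in uninduced and 4.89, 5.23 and 5.64 CPM in stimulated WT, 2 counts over all uninduced clone 1 libraries and none in stimulated clone 1 or in clone 2. Stimulated clones 1 and 2 were at least 119-fold and 87.3-fold lower, and 3.15% of its exonic bases lie under an antisense gene. *Fzd3* was 17.2 ± 1.48 and 18 ± 1.05 CPM in uninduced and stimulated WT, 1.79 ± 0.382 and 1.75 ± 0.429 CPM in clone 1 and 1.53 ± 0.209 and 0.763 ± 0.0683 CPM in clone 2. Its log2 fold change in stimulated cells was -3.38 ± 0.18 (SE, adjusted p = 3.92e-16) and -4.55 ± 0.21 (SE, adjusted p = 2.15e-17) by edgeR.

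*Fzd4* and *Fzd7* changed less. *Fzd4* was 146 ± 12.2 CPM in uninduced WT, 70.1 ± 2.13 in clone 1 and 42.6 ± 1.88 in clone 2, with log2 fold changes of -1.05 ± 0.06 (SE, adjusted p = 5.21e-15) and -1.77 ± 0.06 (SE, adjusted p = 3.05e-20) by edgeR, of which the first came to -0.99 without uninduced WT replicate 1. Stimulated, the values were -0.90, below the fold threshold, and -1.18. *Fzd7* was called in uninduced clone 1, at 51.8 ± 3.27 CPM against 108 ± 8.06 CPM in WT, and its other log2 fold changes against WT were -0.39 in uninduced clone 2 and -0.82 and 0.22 in stimulated clones 1 and 2. *Fzd10* had no count in any library.

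The LRP co-receptors differed between treatments. *Lrp5* (ENSMUSG00000024913) had 492, 502 and 483 CPM in uninduced and 921, 1004 and 876 CPM in stimulated WT. Uninduced clones 1 and 2 had 539 ± 29.2 and 439 ± 17.7 CPM, with log2 fold changes of 0.13 and -0.17. Stimulated clone 1 had 2099.5, 2242 and 2127 CPM and clone 2 1674, 1611 and 1544 CPM, so that all 6 libraries lay above all stimulated WT libraries. The log2 fold change was 1.21 ± 0.05 (SE, adjusted p = 5.69e-19) in clone 1, which was called, and 0.79 ± 0.05 (SE, adjusted p = 1.77e-14) in clone 2, which stayed under the fold threshold by edgeR. *Lrp6* was lower in uninduced clones, at 172 ± 4.29 and 168 ± 9.77 CPM against 347 ± 30.8 CPM in WT, with log2 fold changes of -1.01 ± 0.08 (SE, adjusted p = 1.25e-10) and -1.05 ± 0.07 (SE, adjusted p = 6.32e-11) by edgeR. Both sit at the fold threshold and were no longer called without uninduced WT replicate 1. The call of clone 1 was also lost without uninduced clone 1 replicate 1 or with no filter on low counts, at -0.99 to -0.94, and that of clone 2 without uninduced clone 2 replicate 2, at -0.998 to -0.98. In stimulated cells *Lrp6* was 311 ± 13.6 CPM in WT, 356 ± 46.1 in clone 1 and 262 ± 10.03 in clone 2, with no call.

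Among the genes that act at the end of the pathway, *Lef1* was higher and *Nkd1* lower in both stimulated clones. *Lef1*, the TCF/LEF factor that pairs with β-catenin on DNA and is itself a target of the pathway, had 4.37, 4.04 and 3.77 CPM in uninduced and 5.48, 7.52 and 5.91 CPM in stimulated WT. In clone 1 it had 13.2, 13.2 and 15 CPM uninduced and 25.9, 32.4 and 31.8 CPM stimulated. In clone 2 it had 6.25, 6.33 and 5.16 CPM uninduced and 16.3, 17.2 and 16.2 CPM stimulated. In stimulated cells all clone libraries were above WT, with log2 fold changes of 2.25 ± 0.13 (SE, adjusted p = 1.64e-15) and 1.39 ± 0.13 (SE, adjusted p = 2.25e-10) by edgeR. Uninduced, the change was 1.77 ± 0.14 (SE, adjusted p = 6.31e-12) in clone 1, and in clone 2 it was 0.56 ± 0.15 (SE, adjusted p = 0.00176) and under the fold threshold. Of the exonic bases of *Lef1*, 13.7% lie under an antisense gene. *Tcf7*, the second TCF/LEF factor of the list, was 3.48 ± 0.48 CPM in stimulated WT, 0.839 ± 0.12 in clone 1 and 1.39 ± 0.197 in clone 2, with log2 fold changes of -2.06 ± 0.35 (SE, adjusted p = 8.08e-06) and -1.32 ± 0.34 (SE, adjusted p = 0.0014) by edgeR and no call in uninduced cells.

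*Nkd1* (ENSMUSG00000031661), a Dishevelled-binding inhibitor that the pathway induces as feedback, had 1.69, 2.46 and 2.9 CPM in uninduced and 39.1, 41.4 and 41.2 CPM in stimulated WT. Clone 1 had 0.359, 0.268 and 0.207 CPM uninduced and 1.81, 2.95 and 2.05 CPM stimulated. Clone 2 had 0.223, 0.0886 and 0.116 CPM uninduced and 2.07, 1.83 and 1.74 CPM stimulated. Stimulated clones therefore reached about the level of uninduced WT. The log2 fold change against WT was -3.08 ± 0.32 (SE, adjusted p = 1.99e-09) and -3.83 ± 0.32 (SE, adjusted p = 2.47e-11) uninduced and -4.13 ± 0.18 (SE, adjusted p = 1.68e-18) and -4.42 ± 0.19 (SE, adjusted p = 1.63e-18) stimulated by edgeR. Without uninduced clone 2 replicate 1, which held 10 of its group's 14 counts, the uninduced value of clone 2 was -4.49. *Nkd2*, a related inhibitor, was 4.28 ± 0.953 CPM in stimulated WT, 1.34 ± 0.317 in clone 1 and 7.42 ± 1.68 in clone 2. It was lower in stimulated clone 1, with a log2 fold change of -1.66 ± 0.37 (SE, adjusted p = 3.32e-04), and higher in uninduced clone 2, with 2.06 ± 0.58 (SE, adjusted p = 0.0034) by edgeR, or 2.81 without uninduced WT replicate 3. *Axin2*, the most used readout of β-catenin signalling, was hardly detected, with 23 and 10 counts in uninduced and stimulated WT, 11 and 0 in clone 1 and 1 and 3 in clone 2, and was not tested.

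**Figure D4:**
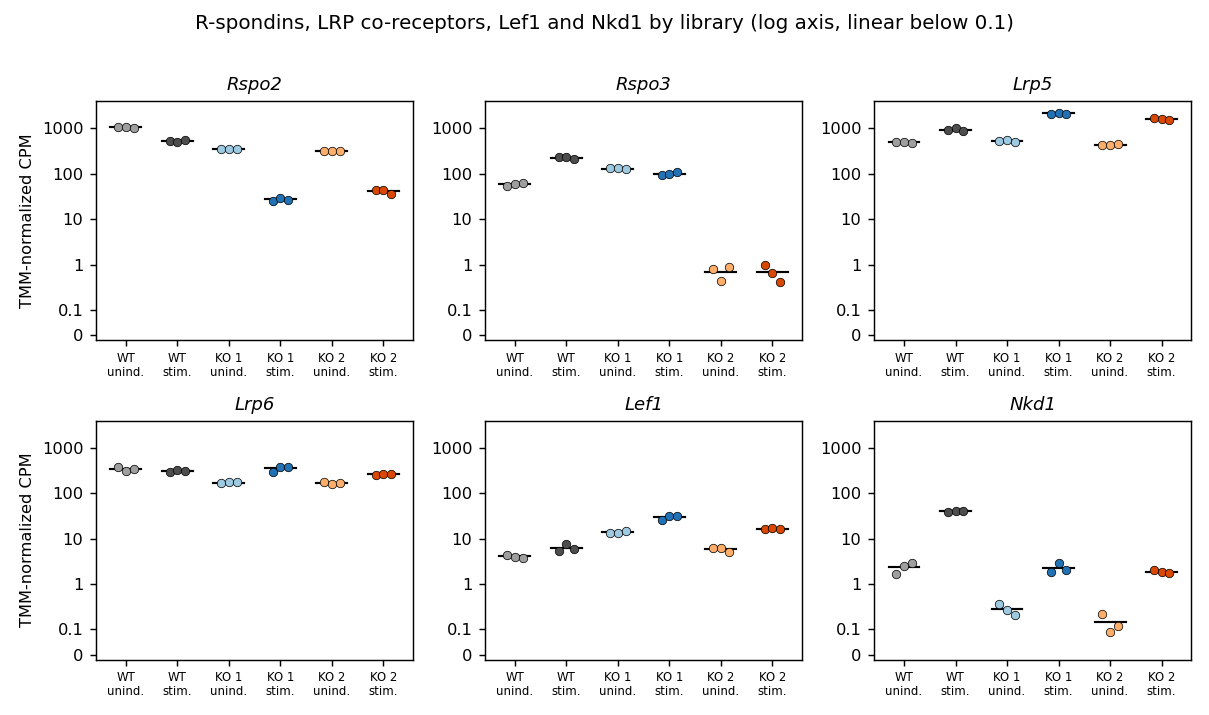
TMM-normalized CPM of 6 members in each of the 18 libraries (points) with the mean of each group (line), on a log axis that is linear below 0.1 CPM. *Rspo3* is under 1 CPM in all 6 clone 2 libraries but between 95.7 and 133 CPM in clone 1, *Lrp5* and *Lef1* are highest in the stimulated clones, and stimulated *Nkd1* in either clone sits near uninduced WT.

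Stimulation with TGF-β1 and DMII was then followed within each genotype. In WT cells 4 members rose and 4 fell, where 6.25% and 13.6% of all tested genes did. In clone 1, 6 rose and 6 fell beside 5.95% and 10.7%, and in clone 2, 6 rose and 7 fell beside 6.46% and 11.2% of all tested genes. *Nkd1*, *Nkd2* and *Sfrp1* rose in all 3 genotypes. The log2 fold change of *Nkd1* was 4.08 ± 0.18 (SE, adjusted p = 2.56e-18) in WT, 3.03 ± 0.32 (SE, adjusted p = 2.21e-09) in clone 1 and 3.48 ± 0.35 (SE, adjusted p = 6.80e-10) in clone 2, that of *Nkd2* 4.46 ± 0.50 (SE, adjusted p = 6.54e-09), 3.22 ± 0.59 (SE, adjusted p = 3.13e-05) and 3.2 ± 0.39 (SE, adjusted p = 3.98e-08), and that of *Sfrp1* 2.19 ± 0.06 (SE, adjusted p = 6.76e-24), 2.66 ± 0.07 (SE, adjusted p = 3.24e-23) and 3.65 ± 0.09 (SE, adjusted p = 7.93e-25) by edgeR. The *Nkd2* values rest on few counts in uninduced cells and came to 5.21 in WT without uninduced replicate 3 and to 4.57 in clone 1 without uninduced replicate 2, and *Nkd1* in clone 2 came to 4.15 without uninduced replicate 1. *Nkd2* passed the filter's level throughout a group only in the 3 stimulated groups, where it is high. The adjusted p-values of its responses are therefore descriptions. *Sfrp2* fell in all 3 genotypes, with log2 fold changes of -2.71 ± 0.07 (SE, adjusted p = 4.61e-22) in WT and -5.6 ± 0.17 (SE, adjusted p = 4.67e-21) in clone 1, and at least 19.4-fold in clone 2. The response of *Lef1* was 0.65 in WT, 1.12 in clone 1 and 1.47 in clone 2, and that of *Lrp5* 0.92, 2.0 and 1.87, with both clone values called for either gene and the WT values under the fold threshold. *Fzd4* responded by 0.57 in WT, 0.72 in clone 1 and 1.16 ± 0.06 (SE, adjusted p = 6.36e-16) in clone 2 by edgeR, and the last was called. *Wnt5a* was called lower in clone 2 on 31 and 5 counts, at -1.79 ± 0.73 (SE, adjusted p = 0.0413), a call lost without uninduced clone 2 replicate 1, stimulated clone 2 replicate 1 or 3 or stimulated clone 1 replicate 3, at -1.77 to -0.96. Without stimulated clone 2 replicate 2 it was -3.39. In WT *Dkk2* and *Fzd9* also fell, at -3.3 ± 0.54 (SE, adjusted p = 1.23e-05) and -1.1 ± 0.10 (SE, adjusted p = 3.20e-10) by edgeR. *Rspo2* fell in all 3 genotypes, at -3.68 ± 0.06 (SE, adjusted p = 6.15e-28) in clone 1 and -2.96 ± 0.06 (SE, adjusted p = 3.21e-26) in clone 2, but in WT its log2 fold change of -1.02 ± 0.05 (SE, adjusted p = 3.00e-16) sits at the threshold. It came to between -0.999 and -0.97 and was no longer called with no filter on low counts, or without any of the 6 stimulated clone libraries, uninduced WT replicate 1 or 2 or stimulated WT replicate 2.

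Whether a clone responded as WT did was tested on the difference between the responses. The difference in response was called for 2 members toward higher and 6 toward lower in clone 1, beside 5.34% and 3.46% of all tested genes, and for 1 and 6 in clone 2, beside 4.89% and 2.96%. *Rspo3* rose in WT by 1.94 ± 0.07 (SE, adjusted p = 1.41e-20) but changed by -0.37 in clone 1 and -0.05 in clone 2, a difference of -2.3 ± 0.09 (SE, adjusted p = 3.72e-18) and -1.99 ± 0.30 (SE, adjusted p = 4.12e-06) by edgeR. *Rspo2* fell further in the clones than in WT, by a difference of -2.66 ± 0.08 (SE, adjusted p = 4.43e-21) and -1.94 ± 0.08 (SE, adjusted p = 6.47e-18), and so did *Wnt5b*, with a difference of -1.21 ± 0.13 (SE, adjusted p = 1.37e-08) and -1.16 ± 0.14 (SE, adjusted p = 1.17e-07). *Sfrp2* also fell further, with a difference of -2.89 ± 0.23 (SE, adjusted p = 3.58e-11) in clone 1, and the fitted difference of clone 2 rests on a group with 0 counts. For *Dkk3*, which changed by -0.61 in WT without a call, the clone groups held 0 and 1 count after stimulation, so that their fitted differences are no measure of size. *Lrp5* and *Lrp6* responded more in clone 1, with differences of 1.08 ± 0.07 (SE, adjusted p = 1.39e-13) and 1.2 ± 0.10 (SE, adjusted p = 4.46e-09). The response of *Lrp6* within clone 1 was 1.05, and 0.998 without stimulated clone 1 replicate 2. In clone 2 these differences, 0.95 and 0.80, stayed under the fold threshold. *Sfrp1* responded more in clone 2, by 1.46 ± 0.11 (SE, adjusted p = 2.50e-12), and *Tcf7* differed in clone 1, at -1.84 ± 0.48 (SE, adjusted p = 0.00331), with a response of -1.36 there and 0.48 in WT. The difference of *Fzd3* in clone 2, -1.02 ± 0.31 (SE, adjusted p = 0.0104), was no longer called, at -0.99 to -0.95, without stimulated clone 2 replicate 1 or 2, uninduced clone 2 replicate 2 or 3, stimulated WT replicate 1 or uninduced WT replicate 2. The difference of *Lef1* was not called, at 0.48 ± 0.19 (SE, adjusted p = 0.0565) in clone 1 and 0.83 ± 0.20 (SE, adjusted p = 0.00157) in clone 2, nor was that of *Fzd4*, at 0.15 ± 0.08 (SE, adjusted p = 0.185) and 0.59 ± 0.09 (SE, adjusted p = 2.09e-06) by edgeR. For *Nkd1* the difference was not called, at -1.05 ± 0.46 (SE, adjusted p = 0.0858) and -0.60 ± 0.51 (SE, adjusted p = 0.423), with 95% intervals of -2.06 to -0.04 and -1.7 to 0.51.

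**Figure D5:**
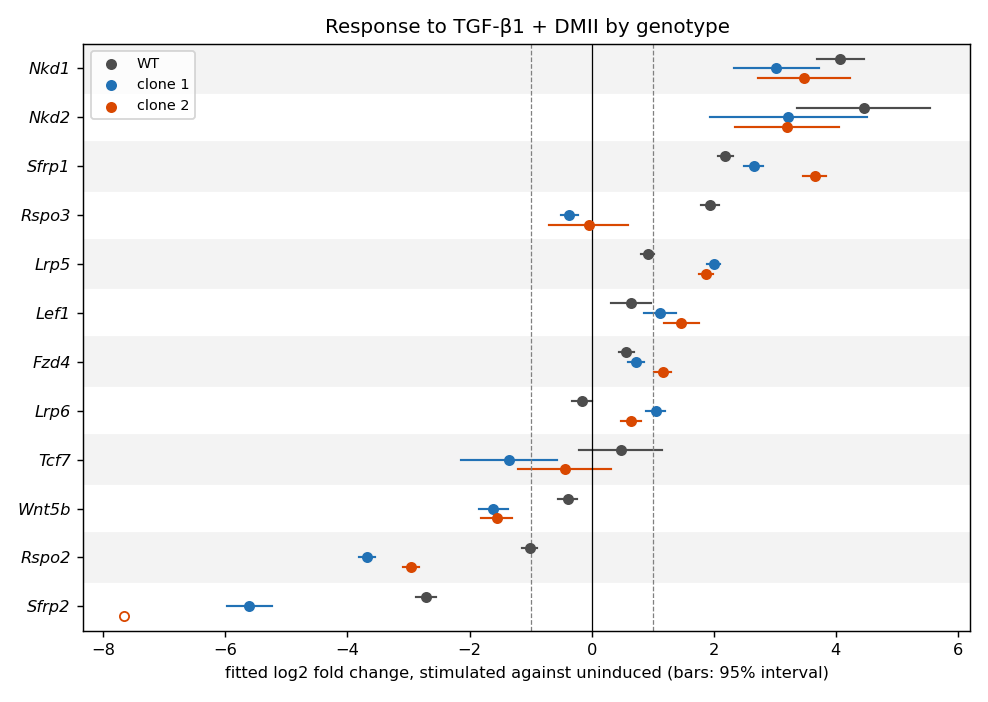
Fitted log2 fold change of 12 members after TGF-β1 + DMII in WT (grey), clone 1 (blue) and clone 2 (orange), with bars for 95% intervals, dashed lines at -1 and 1 and an open symbol where a group held 3 counts or fewer. *Nkd1*, *Nkd2* and *Sfrp1* rise in all genotypes, *Rspo3* rises in WT alone among the 3 genotypes, and *Rspo2*, *Wnt5b* and *Sfrp2* lie further left in the clones than in WT.

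Several members told the clones apart. Between uninduced clones 4 members were higher and 4 lower in clone 2 (all tested genes, 3.78% and 4.89%), and between stimulated clones 3 were higher and 3 lower (4.48% and 5.50%). *Rspo3* was lower in clone 2, at -7.51 ± 0.12 (SE, adjusted p = 2.06e-28) uninduced and -7.2 ± 0.13 (SE, adjusted p = 8.46e-27) stimulated, and *Fzd9* was higher, at least 79.1-fold in stimulated cells. *Nkd2* was higher in clone 2 by 2.48 ± 0.63 (SE, adjusted p = 0.00182) and 2.45 ± 0.37 (SE, adjusted p = 2.57e-06) by edgeR, and the uninduced value was 3.83 without uninduced clone 1 replicate 2. *Sfrp2* was lower, at -3.77 ± 0.13 (SE, adjusted p = 2.88e-19) uninduced and at least 5.38-fold stimulated. Uninduced *Sfrp1* and *Lef1* were also lower in clone 2, at -1.64 ± 0.10 (SE, adjusted p = 5.09e-14) and -1.21 ± 0.13 (SE, adjusted p = 7.46e-09). Stimulated *Fzd7* was higher, by 1.04 ± 0.06 (SE, adjusted p = 2.15e-14), and *Fzd3* lower, at -1.17 ± 0.27 (SE, adjusted p = 6.10e-04), but either call was lost without 1 library, at 0.996 without stimulated clone 1 replicate 2 and at -0.998 without stimulated clone 1 replicate 3. *Wnt5a* and *Wnt6* were called higher in uninduced clone 2 on few counts. For *Wnt5a* the log2 fold change was 3.17. It was 5.99 with an adjusted p of 0.00301 without uninduced clone 1 replicate 1, and 2.34 with an adjusted p of 0.0875 by edgeR, no longer called, without uninduced clone 2 replicate 1.

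The rest of the pathway was described from 4 lists of other Wnt genes. Here too a gene that entered the test only through the groups where it is high had to differ. *Prickle1* and *Fgf18*, hardly detected in either clone, are such genes. The counts and medians of these lists are therefore descriptions. Of 25 genes for secretion, further receptors and secreted inhibitors, 16 were tested. In uninduced cells 2 were higher and 5 lower in clone 1, beside 6.32% and 8.73% of all tested genes. Uninduced clone 2 had 1 higher and 6 lower, beside 5.54% and 9.56%. The uninduced medians were -0.52 and -0.46. In stimulated cells 2 were higher and 4 lower in clone 1, beside 9.42% and 9.60% of all tested genes, and 1 higher and 6 lower in clone 2, beside 7.95% and 8.94%, with medians of -0.38 and -0.35 on the log2 scale where that of all tested genes was -0.02 and -0.01. *Frzb*, an antagonist of the same kind as the SFRP proteins, was 146 ± 11.6 CPM in uninduced and 50.3 ± 3.28 CPM in stimulated WT. It was 2.91 ± 1.04 and 0.424 ± 0.182 CPM in clone 1, and clone 2 held 68 and 3 counts against 8999 and 3309 in WT. *Ptk7*, a co-receptor of the planar polarity arm, was 29.5 ± 0.518 CPM in stimulated WT, 0.207 ± 0.115 in clone 1 and 0.102 ± 0.0405 in clone 2, with log2 fold changes of -7.03 and -8.12. *Notum* encodes a secreted enzyme that inactivates Wnt by removing its lipid. It rose in WT from 1.37 ± 0.349 to 11.7 ± 0.76 CPM and was 0.842 ± 0.221 and 3.9 ± 0.366 CPM in the stimulated clones. *Notum* was also called higher after stimulation within each clone, in clone 1 from 3 counts to 57. Its difference in response from WT was called in neither clone. *Porcn*, the enzyme that adds the lipid to Wnt, was called higher in both stimulated clones. It was 18.1 ± 1.1 CPM in stimulated WT and 57.9 ± 5.22 and 60.1 ± 9.27 CPM in the clones. In WT *Trabd2b*, another Wnt-inactivating enzyme, rose by 3.37 ± 0.13 (SE, adjusted p = 1.61e-19), and *Draxin* went from 68 counts to 1.

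All 25 genes of the cytoplasmic and nuclear list were tested. In uninduced cells 0 were higher and 1 lower in each clone. The shares of all tested genes were 6.32% and 8.73% for clone 1 and 5.54% and 9.56% for clone 2. In stimulated cells 1 was higher and 1 lower in clone 1, beside 9.42% and 9.60%. Stimulated clone 2 had 0 higher and 1 lower, beside 7.95% and 8.94%. The stimulated medians were 0.32 and 0.22. *Ctnnb1*, which encodes β-catenin, was 665 ± 45.6 CPM in uninduced WT, 707 ± 22.5 in clone 1 and 863 ± 13.6 in clone 2, and 634 ± 3.03, 849.96 ± 14.1 and 986 ± 21.8 CPM after stimulation. The calls in stimulated cells were *Pygo1*, lower in clone 1 at -2.12 ± 0.17 (SE, adjusted p = 8.54e-12), *Tle4*, lower in clone 2 at -2.08 ± 0.29 (SE, adjusted p = 3.72e-07), and *Ctnnbip1*, which encodes an inhibitor of β-catenin, higher in clone 1 by 1.2 ± 0.07 (SE, adjusted p = 3.23e-15). In WT 5 genes of this list fell with stimulation and none rose, beside 13.6% and 6.25% of all tested genes. Among those that fell were *Tcf7l2*, at -1.73 ± 0.09 (SE, adjusted p = 4.14e-14), and *Dvl2*, at -1.31 ± 0.07 (SE, adjusted p = 2.86e-16) by edgeR.

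Of 15 planar polarity genes 12 were tested. In uninduced cells 0 were higher and 4 lower in clone 1, beside 6.32% and 8.73% of all tested genes. Uninduced clone 2 had 1 higher and 3 lower, beside 5.54% and 9.56%. In stimulated cells 1 was higher and 6 lower in clone 1, beside 9.42% and 9.60% of all tested genes. Stimulated clone 2 had 1 higher and 4 lower, beside 7.95% and 8.94%. The stimulated medians were -1.09 and -0.53, against -0.02 and -0.01 over all tested genes. *Prickle1*, a core component of that arm, had 2104 and 3336 counts in uninduced and stimulated WT, 2 and 0 in clone 1 and none in clone 2. Stimulated clones 1 and 2 were at least 1147-fold and 841-fold lower. *Dact1* was 14.7 ± 1.33, 0.777 ± 0.0846 and 0.324 ± 0.283 CPM and *Daam2* 35.2 ± 2.11, 2.88 ± 1.22 and 2.26 ± 0.804 CPM in stimulated WT, clone 1 and clone 2. *Prickle2* was the gene of the list that was higher in stimulated clones, at 29.2 ± 2.09 and 17.8 ± 1.53 CPM against 4.13 ± 0.35 CPM. With stimulation it fell in WT, by 1.73 on the log2 scale, and was called higher in clone 1. Uninduced, it was called in neither clone against WT. In WT *Daam1* rose by 1.54 ± 0.08 (SE, adjusted p = 4.98e-16) and *Vangl1* fell by 1.31 ± 0.10 (SE, adjusted p = 5.84e-13) on the log2 scale.

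Of 16 genes used elsewhere as readouts of Wnt signalling 13 were tested. In stimulated cells 1 was higher and 5 lower in clone 1, beside 9.42% and 9.60% of all tested genes, and 0 higher and 2 lower in clone 2, beside 7.95% and 8.94%. The clone 2 count of lower genes is within 1 gene of that background. The medians were -0.26 and -0.47. In uninduced cells 1 was higher and 3 lower in each clone. The shares of all tested genes were 6.32% and 8.73% for clone 1 and 5.54% and 9.56% for clone 2. *Fgf18* was 3.2 ± 0.263 CPM in uninduced and 27.9 ± 2.33 CPM in stimulated WT and had 9 and 8 counts in clone 1 and 10 and 1 in clone 2. *Ccnd1*, which encodes cyclin D1, was close in the 3 uninduced genotypes, at 90.1 ± 1.38, 92 ± 2.17 and 99 ± 4.48 CPM, and after stimulation it was 53.8 ± 0.547 CPM in WT, 11.2 ± 0.874 in clone 1 and 27.1 ± 0.328 in clone 2. It was called lower in stimulated clone 1, at -2.25 ± 0.07 (SE, adjusted p = 2.32e-22), and in clone 2 its -0.99 missed the fold threshold by edgeR. *Cyr61* had log2 fold changes of -1.08 ± 0.14 (SE, adjusted p = 1.87e-05) and -1.09 ± 0.14 (SE, adjusted p = 2.00e-05) in stimulated cells by edgeR. In WT *Wisp1* rose by 3.71 ± 0.06 (SE, adjusted p = 1.06e-28) and *Fst* by 2.6 ± 0.06 (SE, adjusted p = 1.01e-24), and *Id2* fell by 5.18 ± 0.12 (SE, adjusted p = 7.21e-25) on the log2 scale. Readout genes of this kind answer to other signals as well, TGF-β1 among them.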

How the data were processed

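Poly(A) RNA of 18 libraries was sequenced by the study as paired ends, reads were mapped to mm10 (GRCm38) with HISAT2, and the authors deposited raw read counts per gene for all libraries in 1 table, with gene coordinates and lengths. For the counting, the sources used here give no program, annotation or strand setting. Groups were taken from the labels, and all columns with per-sample values were used.

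From the counts, genes were kept by edgeR's filterByExpr (4.0.16, R 4.3.3, minimum count 10, by group), scaled by TMM and fitted with the robust quasi-likelihood test over all 6 groups, with 12 residual degrees of freedom. P-values were adjusted by Benjamini-Hochberg over 14317 genes in each of 11 comparisons: 3 responses to stimulation, 4 of a clone against WT, 2 differences in response and 2 between clones. The study's own tool, DESeq2 (1.42.0 here), was an alternative, beside its size factors, a stricter filter (1 CPM in at least 3 libraries), no filter beyond 1 count, a replicate block and leaving out each library. The fit was tested on simulated data with known changes. TMM factors were 1.07 to 1.11 in uninduced and 0.869 to 0.950 in stimulated libraries, where the 10 genes with most counts held 7.92% to 9.16% and 12.2% to 15.2% of counts. Replicates were not repeats of a library, with a chi-square of 3.13 to 14.6 per degree of freedom over 18 pairs. Over 3 libraries, 3 counts correspond to 0.0354 to 0.0603 CPM. This floor stood in for 0 counts in "at least" folds, and ratios with 1 to 3 counts have a 95% counting interval, which covers counting error only.

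The members and the pathway and marker lists were chosen with earlier results of these data known. Every member is named. Called members with a mean of at least 1 CPM in a group are described with their values, and from each pathway list up to 4 called genes with the largest change in the stimulated clones or in the WT response are named. *Ctnnb1* and the single markers were named after their values were seen. The values of 1 gene of the pathway lists are not reported here.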

Additional observations from a re-analysis of the deposited data

Results flagged for a closer look

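Differences in the same contrast between genotypes, tested as such in the edgeR fit, passed the threshold for the members below. For the response to stimulation in clone 1 less that in WT, the log2 differences were 1.08 for *Lrp5*, 1.2 for *Lrp6*, -2.66 for *Rspo2*, -2.3 for *Rspo3*, -2.89 for *Sfrp2*, -1.84 for *Tcf7*, -1.21 for *Wnt5b* and -5.75 for *Dkk3*. In clone 2 less WT they were -1.02 for *Fzd3*, -1.94 for *Rspo2*, -1.99 for *Rspo3*, 1.46 for *Sfrp1*, -4.95 for *Sfrp2*, -1.16 for *Wnt5b* and -3.74 for *Dkk3*. The *Dkk3* values of both clones and the *Sfrp2* value of clone 2 are fitted on groups with 0 or 1 count and give no size. Both differences use the same WT libraries.

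Between the clones, clone 2 less clone 1 differed in uninduced cells by 9.24 for *Fzd9*, 2.48 for *Nkd2*, 3.17 for *Wnt5a*, -1.21 for *Lef1*, -7.51 for *Rspo3*, -1.64 for *Sfrp1* and -3.77 for *Sfrp2*. In stimulated cells it differed by 9.24 for *Fzd9*, 1.04 for *Fzd7*, 2.45 for *Nkd2*, -1.17 for *Fzd3*, -7.2 for *Rspo3* and -5.83 for *Sfrp2*. The *Fzd9* values of both treatments, the uninduced *Wnt5a* value and the stimulated *Sfrp2* value are fitted on groups with 0 to 2 counts. The *Wnt5a* value was 5.99 without uninduced clone 1 replicate 1, and 2.34 and no longer called without uninduced clone 2 replicate 1. *Wnt6* was also called between the uninduced clones, at 2.53 on 9 and 78 counts.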

How the results depend on the processing

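Of 125 called values of members at 1 CPM or more, 125 stayed called with DESeq2, with DESeq2's size factors and with the filter of 1 CPM in 3 libraries, and 123 with no filter, which lost *Rspo2* in WT and *Lrp6* in uninduced clone 1. Leaving out 1 library kept 2221 of 2250 values, and none changed sign under any of these alternatives. *Wnt6*, whose calls rest on few counts, is not among them. With 1 library left out, called members numbered 7 to 8 for the WT response, 10 to 14 and 12 to 13 for the responses of clones 1 and 2, 14 to 19 and 17 to 19 against uninduced WT, 17 to 19 and 16 against stimulated WT, 8 to 9 and 6 to 9 for the differences in response, and 7 to 9 and 5 to 7 between uninduced and stimulated clones. Same-numbered libraries did not deviate together over all tested genes, with correlations of -0.04 to 0.05 over 45 pairs, and the main fit does not pair them. The labels do not say whether they shared a culture or batch, and such correlations cannot settle it. The replicate block kept all 125 calls, and the counts were 8, 12, 13, 17, 17, 17, 16, 8, 7, 8 and 6 in the order above. With the length of the longest transcript, the share of *Fzd8* in its class was 19.5% in place of 30.2%, that of *Rspo2* 94.4% in place of 91.6% and that of *Sfrp1* 88.2% in place of 88.9%. *Axin2* and the other members at a few counts were not testable at this depth.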

Other observations

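For members with 3 counts or fewer in a clone, the nearest tested genes on either side were looked up after these values had been seen. *Baz1b*, 2809 bases from *Fzd9*, had log2 fold changes of -0.40 and -0.36 in uninduced and stimulated clone 1, where *Fzd9* had 1 and 0 counts, and *Nsun5*, on the other side, had -0.30 and 0.02. *Usp47*, 4356 bases from *Dkk3*, had -0.03 in stimulated clone 1 and 0.11 in clone 2, where *Dkk3* had 0 and 1 counts, and *Mical2*, on the other side, had -0.50 and -0.02. *Slc25a32*, 53043 bases from *Fzd6*, had between -0.44 and 0.45 in the 4 comparisons of a clone with WT. *Baalc*, on the other side of *Fzd6* at 53122 bases, had 2.75 and 2.18 in uninduced clones 1 and 2 (adjusted p = 0.108 and 0.214 by edgeR), -1.87 in stimulated clone 1 (adjusted p = 0.0301) and -1.28 in stimulated clone 2 (adjusted p = 0.138). *Papss1* and *Aimp1*, on either side of *Dkk2*, had -0.30 and -0.39 in uninduced clone 2. Near *Sfrp2*, *Tlr2* was higher in stimulated clone 2, by 2.11 (adjusted p = 7.21e-20 by edgeR), and *Dchs2*, at 409112 bases, lower, at -3.08 (adjusted p = 0.0203). *Ccdc66*, on 1 side of *Wnt5a*, had 0.30 and 0.23 in uninduced and stimulated clone 1. On the opposite side *Cacna2d3*, at 377495 bases, had a fitted -7.42 (adjusted p = 0.000231) in uninduced clone 1 and -4.26 (adjusted p = 0.0592) in stimulated clone 1. Changes at the DNA level were not tested.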
